A study of Mus musculus with 9 samples.

Results

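The matrix metalloproteases (MMPs), the ADAM and ADAMTS proteases, the ADAMTS-like proteins and the TIMPs were followed in RNA-seq of mouse heart. Members were taken by symbol: every gene whose symbol starts with Mmp, Adam or Timp followed by a digit, or with Adamts. The rule found 64 of the 16873 genes in the files, namely 19 MMP, 18 ADAM, 18 ADAMTS, 5 ADAMTS-like and 4 TIMP genes. The hearts fell into 3 groups of 3 libraries: wild-type (WT) with saline, WT with doxorubicin (DOX), and Sting-/-, in which the gene for STING is deleted, with doxorubicin. Doxorubicin is an anthracycline used against cancer whose known side effect is heart damage, and STING is the adaptor protein of the cGAS DNA-sensing pathway. The series gave the drug at a low dose as a model of chronic cardiotoxicity and asked what the pathway contributes. No age, sex or strain was given in the labels, and Sting-/- hearts without the drug were not analysed here, so what the genotype does on its own enters each comparison that uses the Sting-/- libraries. Whether the 3 libraries of a group are 3 animals is not given in the sources used here, and p-values then measure only the spread between libraries, which may be technical.

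MMPs are zinc-dependent proteases, made as inactive proenzymes, that cut collagens, gelatin, elastin, proteoglycans and other parts of the extracellular matrix. ADAMs are mostly membrane-bound and release the outer parts of cell-surface proteins, a step called shedding, while the secreted ADAMTS proteases cut proteoglycans and process procollagens. TIMPs bind and block the active sites of these enzymes, and the ADAMTS-like proteins share the ancillary domains of ADAMTS without a protease domain. In the heart these genes are known for their part in matrix turnover after injury, with fibroblasts, endothelial cells, cardiomyocytes and infiltrating leukocytes as sources.

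Values were FPKM (fragments per kilobase of transcript, relative to the library's mapped fragments), which are scaled to gene length, so levels of different genes can be set side by side. An approximate depth, read from whole-read steps among low values and counted in 1000000 fragments, was 11.2 to 11.5 for the saline libraries, 12.8 to 13.3 for WT DOX, then 8.1 to 8.4 for Sting-/- DOX. Sting1, the deleted gene, was at 5.1, 5.43 and 5.93 FPKM in saline, 17.49, 17.96 and 17.76 in WT DOX and 0.06, 0 and 0 FPKM in the Sting-/- libraries. Pearson's r across genes was 0.995 to 0.997 within groups, 0.848 to 0.852 from WT DOX to Sting-/- DOX, and 0.77 to 0.777 from saline to Sting-/- DOX, so the Sting-/- libraries stood apart from both WT groups. The summed FPKM of 10 cardiomyocyte markers was 75079 to 76127 in saline, 48447 to 51454 in WT DOX, then 10667 to 11217 in Sting-/- DOX. The summed FPKM of 10 fibroblast markers was 589 to 601, 1223 to 1268 and 7822 to 8307 in the same order, that of 10 endothelial markers 390 to 400, 390 to 398 and 1680 to 1806, and that of 10 macrophage and monocyte markers 496 to 548, 1457 to 1640 and 2944 to 3064. In these bulk libraries, fewer cells of a type and less RNA per cell cannot be told apart, and the part that cell makeup plays in the results on the family was not tested.

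Of the 64 genes, 46 had a mean of at least 1 FPKM over the 9 libraries and were tested with limma on log2(FPKM + 1), a scale that understates the change of low genes. The calls used the Benjamini-Hochberg adjusted p over all 12485 genes tested, with a threshold of 0.05. In WT DOX against saline, 28 of the 46 members were higher (60.9%), 10 were lower (21.7%) and 8 were not called, where 45.3% of all tested genes were higher and 21.5% lower. In Sting-/- DOX against WT DOX, 31 members were higher (67.4%), 9 were lower (19.6%) and 6 were not called, against 54.1% higher and 29.7% lower among all genes. In Sting-/- DOX against WT saline, 40 were higher (87.0%), 3 were lower (6.52%) and 3 were not called, against 63.0% higher and 25.9% lower among all genes. Much of the transcriptome was called in each comparison, so these shares are read beside those of all genes. The members' median log2 fold change was 0.42, 0.75 and 1.41 in the 3 comparisons, beside 0.13, 0.25 and 0.49 over all genes, which puts the members 0.29, 0.51 and 0.92 above that shift. Mmp8 and Mmp13 reached a mean of 1 FPKM only in WT DOX, and Mmp17, Adam33 and Adamts14 only in Sting-/- DOX, so the filter let these 5 in through the group where they were high.

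The scaling moves the split of calls. With median-ratio scaling the median of all genes was -0.09, -0.05 and -0.02 in the 3 comparisons, and the members split into 25 higher and 15 lower, 29 and 14, and 34 and 9. With quantile normalization the median of all genes was -0.09, 0.02 and 0.03, and the splits were 23 and 17, 30 and 14, and 35 and 8. The shares of all genes called under these scalings are not given here or below. No split under them, of the members or of a list, is therefore read against all genes.

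Summed by family, transcript levels stepped up from saline to WT DOX to Sting-/- DOX. The MMP genes summed to 77.2 ± 1.12 FPKM in saline, 155.7 ± 1.61 FPKM in WT DOX, then 516.1 ± 13.4 FPKM in Sting-/- DOX (SD, n = 3 each). The summed ADAM level was 78.7 ± 0.653, 146.6 ± 4.42 and 274.0 ± 8.45 FPKM, and the summed ADAMTS level 45.6 ± 1.56, 69.6 ± 0.692 and 197.1 ± 1.06 FPKM. The ADAMTS-like genes summed to 62.3 ± 2.57, 69.4 ± 3.34 and 122.8 ± 2.71 FPKM, and the TIMP genes to 101.9 ± 5.11, 392.6 ± 9.12 and 569.7 ± 16.9 FPKM. The library sums of the 3 groups did not overlap in any of the 5 families, and this order of groups held under median-ratio scaling, quantile normalization and TPM scaling except for the ADAMTS-like genes, whose WT DOX mean was 70.9 against 75.8 in saline under median-ratio scaling and 68.2 against 70.5 under quantile normalization. The ratio of TIMP to MMP transcript was 1.40, 1.23 and 1.33 in the saline libraries, 2.472, 2.595 and 2.496 in WT DOX and 1.11, 1.095 and 1.107 in Sting-/- DOX. The ratio was highest in all 3 WT DOX libraries and lowest in Sting-/- DOX, and it is unaffected by scaling a library as a whole. Timp1 alone held 79.9% to 80.4% of the TIMP transcript in WT DOX, so the high ratio there rests largely on that gene.

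**Figure D1:**
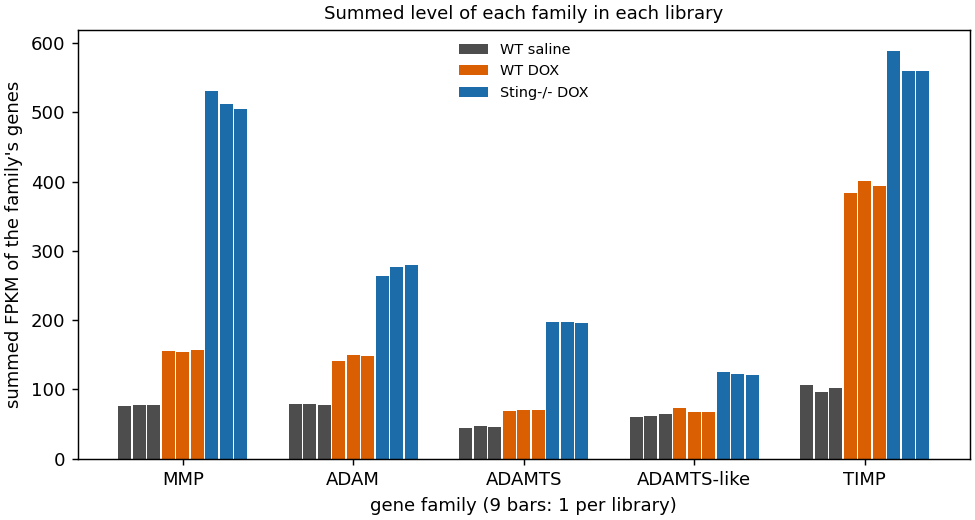
Summed FPKM of each gene family (y axis) in each of the 9 libraries (1 bar per library, coloured by group). The TIMP bars rise from 96.6 to 106.8 FPKM in saline to 383.1 to 401.3 in WT DOX, and the MMP bars are highest in Sting-/- DOX, at 505.4 to 531.1 FPKM.

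**Figure D2:**
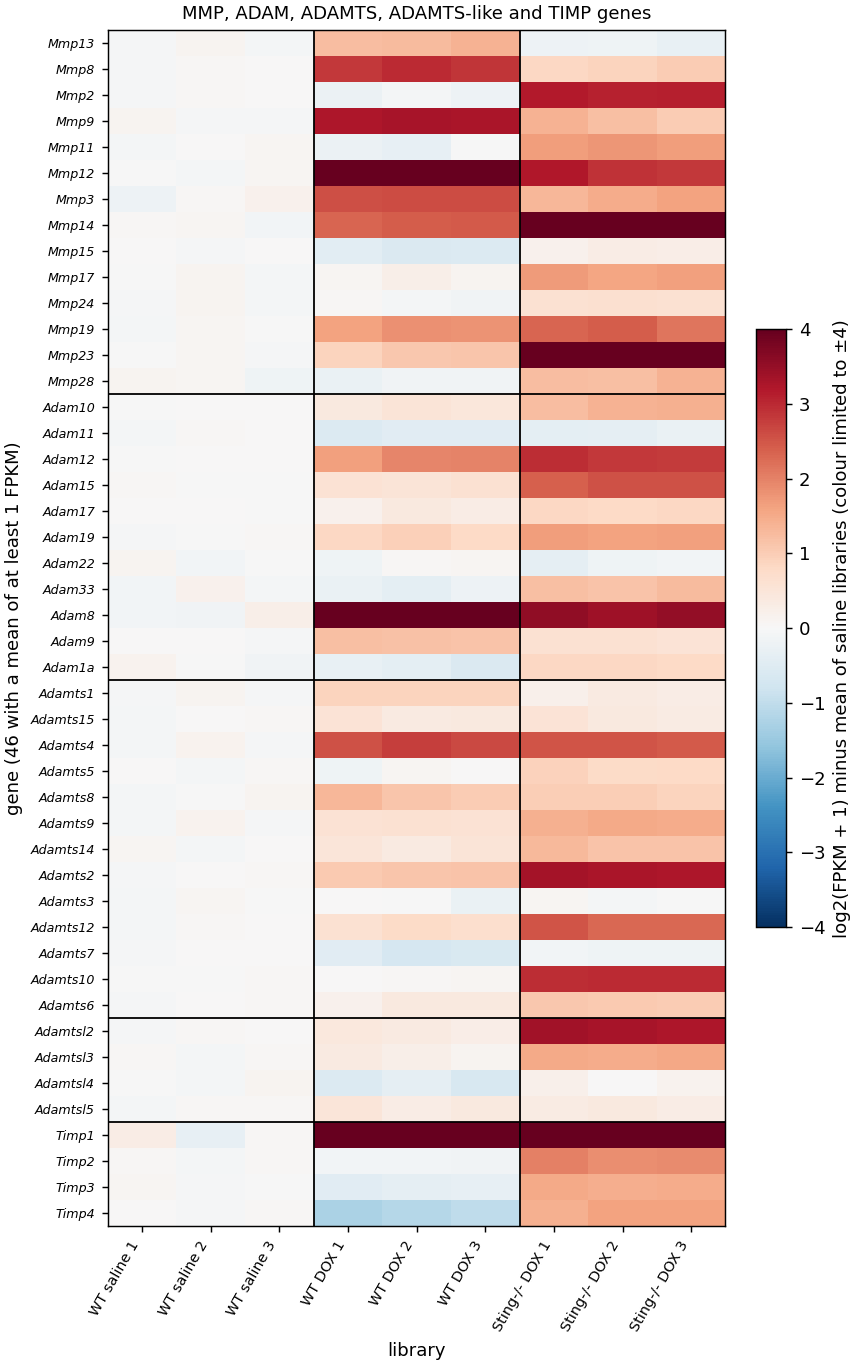
Change of the 46 tested genes in each library, as log2(FPKM + 1) minus the gene's mean in saline (colour, limited at both ends), with libraries in columns and genes in rows, separated by family. Mmp8, Mmp9, Mmp12, Mmp3 and Mmp13 are strongest in the 3 WT DOX columns, and Mmp2, Adamts10 and Adamtsl2 in the 3 Sting-/- DOX columns.

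Among the inhibitors, Timp1 made up most of the TIMP transcript in WT DOX while the other 3 TIMP genes were lower than in saline. Timp1 (gene ID 21857) encodes the inducible secreted inhibitor that is a common marker of tissue injury. Its level was 3.68, 2.06 and 2.94 FPKM in saline, 308.08, 322.74 and 314.2 in WT DOX and 258.75, 248.32 and 240.34 FPKM in Sting-/- DOX. All 6 drug-treated libraries lay far above saline, and the WT DOX libraries lay above those of Sting-/- DOX without overlap. Timp1 rose 108.9-fold in WT DOX (log2 fold change 6.36, SE 0.11, limma adjusted p = 1.31e-12). It was lower in Sting-/- DOX than in WT DOX by 0.34 in log2 units (limma adjusted p = 0.0146). That second call was lost with quantile normalization (log2 fold change -0.00056, limma adjusted p = 0.996), with a pseudocount of 0.1 (limma adjusted p = 0.0507) and with TPM scaling (limma adjusted p = 0.0616). Timp1 made up 2.13% to 3.45% of the TIMP transcript in saline, 79.9% to 80.4% in WT DOX, then 42.9% to 44.3% in Sting-/- DOX.

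The other TIMPs showed the reverse order of WT DOX and Sting-/- DOX. Timp3 (gene ID 21859), whose protein binds to the matrix and also blocks ADAM17, was at 57.06, 52.02 and 53.18 FPKM in saline, 39.01, 42.2 and 42.95 in WT DOX and 155.74, 149.27 and 153.42 FPKM in Sting-/- DOX. Timp3 fell by 0.38 on the log2 scale in WT DOX (limma adjusted p = 2.26e-05) and was 3.69-fold higher in Sting-/- DOX than in WT DOX (limma adjusted p = 4.92e-12). Timp4 (gene ID 110595), the inhibitor known for its expression in heart muscle, was at 9.17, 8.72 and 9.3 FPKM in saline, 3.15, 3.55 and 3.93 in WT DOX and 25.75, 29.76 and 29.59 FPKM in Sting-/- DOX. No libraries of different groups overlapped for either gene. Timp4 fell by 1.15 on the log2 scale in WT DOX (SE 0.075, limma adjusted p = 6.72e-08), the largest fall of any tested member in that comparison, and was 8.01-fold higher in Sting-/- DOX than in WT DOX (limma adjusted p = 9.74e-12). The cardiomyocyte marker sum was lower in WT DOX than in saline and lowest in Sting-/- DOX, where Timp4 was highest, and its part in the Timp4 level was not tested.

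Timp2 (gene ID 21858), which both inhibits MMPs and helps MMP14 activate pro-MMP2, was at 36.88, 33.79 and 36.93 FPKM in saline, 32.88, 32.83 and 32.17 in WT DOX and 149.05, 132.99 and 136.25 FPKM in Sting-/- DOX. Its WT DOX libraries sat just under the lowest saline library, and its Sting-/- DOX libraries far above both. Timp2 was lower in WT DOX by 0.13 in log2 units (limma adjusted p = 0.0384). That call was lost without the variance trend (limma adjusted p = 0.0677) and in 5 of the 6 fits that left out a saline or WT DOX library, all but the one without saline library 2 (limma adjusted p = 0.0618 to 0.124 in those 5). It was 4.27-fold higher in Sting-/- DOX than in WT DOX (limma adjusted p = 3.45e-12). In saline the order of levels was Timp3, Timp2, Timp4 and Timp1, with no overlap between neighbours, and in WT DOX it was Timp1, Timp3, Timp2 and Timp4, again with none. In Sting-/- DOX, Timp1 stood highest, and Timp3 and Timp2 followed with ranges that were close but did not overlap.

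**Figure D3:**
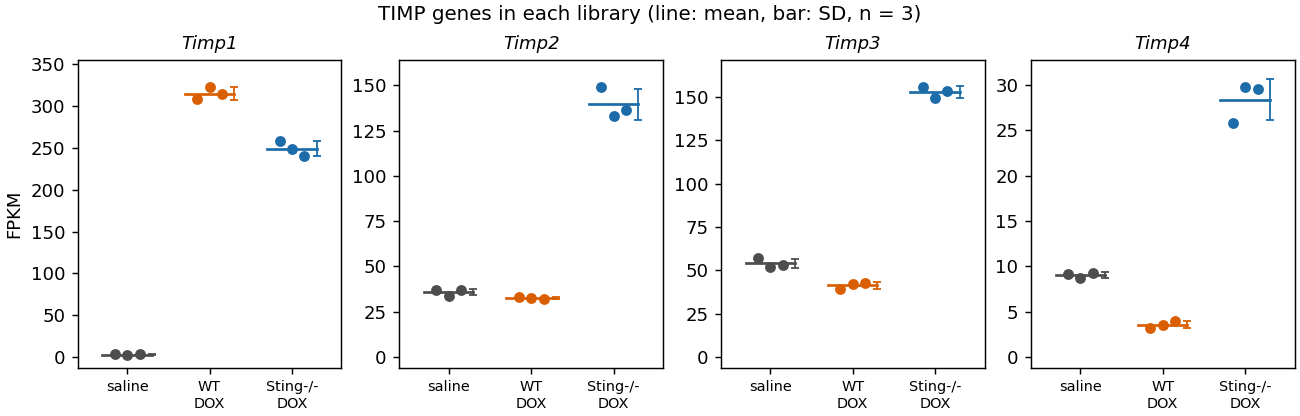
FPKM of the 4 TIMP genes (y axis, separate scale per gene) in each library (points) by group, with the mean as a line and the SD as a bar. Timp1 lies at 308.08 to 322.74 FPKM in WT DOX, and Timp2, Timp3 and Timp4 are highest in the 3 Sting-/- DOX libraries.

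The secreted MMPs that cut collagen, gelatin and elastin fell into 2 sets with opposite orders of the doxorubicin groups. Mmp3, Mmp8, Mmp9, Mmp12 and Mmp13 rose in WT DOX and were lower in Sting-/- DOX than in WT DOX, whereas Mmp2 was slightly lower in WT DOX and far higher in Sting-/- DOX. Of the first set, all but Mmp9 lie in the MMP gene cluster of chromosome 9. The 80 bases before the start sites of these 4 genes are shown because the 4 moved together. They were picked by that shared order and do not stand for the whole cluster. The same stretches follow for Timp1, which was also highest in WT DOX, and for Mmp14 and Timp2, which were not. All stretches come from RefSeq promoters of GRCm38.p6 and run 5′ to 3′ on the gene's strand, and the last base shown is the one before the start site. Capitals in the first 3 mark an AP-1 motif, searched as TGANTCA on both strands, and in the last 3 a GC box, searched as GGGCGG on both strands. An AP-1 match and a GC box match cannot share letters, and the Mmp8 stretch shown holds neither motif.

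Mmp3, chr9:7445742-7445821, plus strand: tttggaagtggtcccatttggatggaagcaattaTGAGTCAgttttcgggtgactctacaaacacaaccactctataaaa

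Mmp12, chr9:7347294-7347373, plus strand: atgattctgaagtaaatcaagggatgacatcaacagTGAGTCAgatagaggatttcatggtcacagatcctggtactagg

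Mmp13, chr9:7272434-7272513, plus strand: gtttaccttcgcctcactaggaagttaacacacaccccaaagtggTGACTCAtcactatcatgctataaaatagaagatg

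Mmp8, chr9:7558349-7558428, plus strand: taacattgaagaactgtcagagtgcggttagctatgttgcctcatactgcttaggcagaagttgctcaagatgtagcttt

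Mmp14, chr14:54431518-54431597, plus strand: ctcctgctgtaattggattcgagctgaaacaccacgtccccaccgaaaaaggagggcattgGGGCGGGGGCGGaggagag

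Timp1, chrX:20870086-20870165, plus strand: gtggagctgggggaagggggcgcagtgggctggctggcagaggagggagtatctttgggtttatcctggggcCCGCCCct

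Timp2, chr11:118355412-118355491, minus strand: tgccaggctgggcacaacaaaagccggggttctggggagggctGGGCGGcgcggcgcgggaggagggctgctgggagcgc

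The AP-1 letters lie 46 to 40 bases before the start site of Mmp3, 44 to 38 before that of Mmp12 and 35 to 29 before that of Mmp13, and they are not in the 250 bases before the start of Mmp8. RefSeq gives Mmp12 more than 1 start site, and the window with the match is the one shown. Of the 64 members, 42 matched the promoter table, with 46 windows. Over 250 bases before the start, TGANTCA was in 5 of the 46 windows (10.9%), those of Mmp3, Mmp10, Mmp12, Mmp13 and Adam19, and in 6.75% of all 32851 promoters. GGGCGG was in 24 of the 46 windows (52.2%) and in 32.7% of all promoters. These are matches of letters, not binding sites.

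Mmp8 (gene ID 17394), the neutrophil collagenase, was at 0, 0.07 and 0.04 FPKM in saline, 6.28, 7.2 and 6.51 in WT DOX and 0.84, 0.91 and 1.08 FPKM in Sting-/- DOX. It was near 0 in saline, highest in all 3 WT DOX libraries and in between in Sting-/- DOX. Mmp8 rose by 2.88 on the log2 scale in WT DOX (SE 0.087, limma adjusted p = 7.84e-11) and was lower by 1.98 in Sting-/- DOX than in WT DOX (limma adjusted p = 5.67e-10). Mmp9 (gene ID 17395), the gelatinase of leukocytes, was at 0.23, 0.11 and 0.11 FPKM in saline, 9.81, 10.35 and 9.96 in WT DOX and 2, 1.63 and 1.3 FPKM in Sting-/- DOX. Its order of groups was that of Mmp8, again without overlap. The log2 fold change of Mmp9 was 3.26 in WT DOX against saline (limma adjusted p = 8.08e-11) and -2.07 in Sting-/- DOX against WT DOX (limma adjusted p = 1.25e-09). The summed FPKM of the 6 neutrophil markers in the files was 6.36 to 7.1 in saline, 209 to 276 in WT DOX, then 83.4 to 99.2 in Sting-/- DOX. That sum had the same order of groups as Mmp8 and Mmp9, and its part in their levels was not tested. Of the 5 tested markers, 4 were lower in Sting-/- DOX than in WT DOX and Retnlg was not called. Ngp, below the filter, went the other way, with means of 0.183 FPKM in WT DOX and 1.45 in Sting-/- DOX. Mpo, Ly6g and Camp of that list were not among the genes analysed here.

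Mmp12 (gene ID 17381), the macrophage metalloelastase, was at 0.41, 0.35 and 0.51 FPKM in saline, 29.73, 24.77 and 28.26 in WT DOX and 12.21, 9.65 and 9.11 FPKM in Sting-/- DOX. The lowest WT DOX library was above the highest Sting-/- DOX library. Its rise in WT DOX, 4.33 on the log2 scale (SE 0.10, limma adjusted p = 1.1e-11), was the second largest of the tested members after Timp1. In Sting-/- DOX it was at 0.374 of its WT DOX mean (log2 fold change -1.34, limma adjusted p = 9.2e-08). Of the 10 macrophage and monocyte markers, 7 were higher and 3, Ccr2, Itgam and Mrc1, lower in Sting-/- DOX than in WT DOX, and their part in the Mmp12 level was not tested. Mmp3 (gene ID 17392), stromelysin-1, which cuts proteoglycans and activates other pro-MMPs, was at 1.21, 1.63 and 1.86 FPKM in saline, 14.23, 14.63 and 14.64 in WT DOX and 5.39, 6.08 and 6.82 FPKM in Sting-/- DOX. Mmp3 rose 9.26-fold in WT DOX (limma adjusted p = 4.81e-10) and in Sting-/- DOX was at 0.421 of its WT DOX mean (limma adjusted p = 3.37e-07). Mmp13 (gene ID 17386), collagenase-3, was at 0.77, 0.95 and 0.74 FPKM in saline, 3.3, 3.38 and 3.76 in WT DOX and 0.58, 0.6 and 0.47 FPKM in Sting-/- DOX. Unlike the other 4, Mmp13 in Sting-/- DOX was not above saline. It rose by 1.30 on the log2 scale in WT DOX (limma adjusted p = 9.35e-08) and was lower by 1.53 in Sting-/- DOX than in WT DOX (limma adjusted p = 7.19e-09). Against saline it was lower in Sting-/- DOX by 0.23 (limma adjusted p = 0.0266), a call lost without saline library 2 (limma adjusted p = 0.103), without Sting-/- DOX library 3 (limma adjusted p = 0.0798) and with only the 2 groups in the fit (limma adjusted p = 0.058).

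Mmp2 (gene ID 17390), the gelatinase made by fibroblasts and other stromal cells, was at 22.47, 24.04 and 23.32 FPKM in saline, 19.54, 21.82 and 19.93 in WT DOX and 218.92, 203.11 and 208.18 FPKM in Sting-/- DOX. The 3 Sting-/- DOX libraries stood alone, while saline and WT DOX lay close together without overlap. Mmp2 was lower in WT DOX by 0.18 in log2 units (limma adjusted p = 0.00724) and 10.3-fold higher in Sting-/- DOX than in WT DOX (log2 fold change 3.30, SE 0.050, limma adjusted p = 8.94e-14). It held 29.6% to 30.7% of the MMP transcript in saline, 12.6% to 14.1% in WT DOX, then 39.7% to 41.2% in Sting-/- DOX. Mmp14 (gene ID 17387), the membrane-type MMP that activates pro-MMP2 at the cell surface, was at 4.66, 4.81 and 4.06 FPKM in saline, 26.88, 28.29 and 28.98 in WT DOX and 138.72, 136.8 and 129.87 FPKM in Sting-/- DOX. Mmp14 stepped up from group to group, 6.22-fold in WT DOX (limma adjusted p = 1.32e-11) and a further 4.82-fold in Sting-/- DOX (limma adjusted p = 5.07e-12). The activator Mmp14 was higher in WT DOX while its substrate Mmp2 was not, and in Sting-/- DOX Mmp2, Mmp14 and Timp2 were all higher than in WT DOX. The fibroblast marker sum stepped up in the same order as Mmp14, and its part in these levels was not tested. Col1a1, Col3a1, Col1a2 and Postn were its highest genes in Sting-/- DOX. Of the 10 markers, 8 were higher in WT DOX than with saline, and Dcn and Dpt were not called. In Sting-/- DOX against WT DOX, 9 were higher and Pdgfra, at means of 9.09 and 9.64 FPKM, was not called. Over all genes, 45.3% and 54.1% were higher.

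Of the other membrane-type MMPs, Mmp15 (gene ID 17388) was the most abundant MMP in saline, with 40.9% to 43.9% of the MMP transcript. It was at 33.37, 31.99 and 33.37 FPKM in saline, 24.06, 21.79 and 22.1 in WT DOX and 37.11, 40.34 and 39.91 FPKM in Sting-/- DOX. Mmp15 fell by 0.52 on the log2 scale in WT DOX (limma adjusted p = 2.36e-06) and was 1.73-fold higher in Sting-/- DOX than in WT DOX (limma adjusted p = 2.84e-08). Its small excess over saline in Sting-/- DOX, 0.24 on the log2 scale (limma adjusted p = 0.000683), turned to -0.34 under median-ratio scaling and to -0.028 with quantile normalization. Mmp17 was at 0.45 ± 0.095, 0.603 ± 0.085 and 3.53 ± 0.226 FPKM and Mmp24 at 3.44 ± 0.313, 3.26 ± 0.305 and 5.78 ± 0.117 FPKM in saline, WT DOX and Sting-/- DOX (SD, n = 3 each). Neither was called in WT DOX against saline, although Mmp24 was lower under median-ratio scaling (-0.26) and quantile normalization (-0.33), and both were higher in Sting-/- DOX than in WT DOX. All 4 tested membrane-type MMPs were higher in that second comparison, where 54.1% of all tested genes were higher. Mmp16 and Mmp25 of the class were below the filter.

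The remaining MMPs were mostly highest in Sting-/- DOX. Mmp23 (gene ID 26561), an unusual MMP without the common C-terminal domain, was at 3.48, 3.79 and 3.41 FPKM in saline, 7.54, 8.56 and 8.82 in WT DOX and 77.22, 73.58 and 71.38 FPKM in Sting-/- DOX. Its 2.33-fold rise in WT DOX (limma adjusted p = 3.92e-08) was small beside the 8.92-fold difference between Sting-/- DOX and WT DOX (limma adjusted p = 8.65e-13). Mmp19 was at 0.6 ± 0.085, 4.39 ± 0.422 and 6.93 ± 0.767 FPKM in saline, WT DOX and Sting-/- DOX and passed the test upward in both comparisons. Mmp11, stromelysin-3, was at 3.99 ± 0.28, 3.40 ± 0.531 and 15.3 ± 0.439 FPKM, and Mmp28, epilysin, at 1.02 ± 0.217, 0.77 ± 0.087 and 3.88 ± 0.371 FPKM in the same order (SD, n = 3 each). Neither was called in WT DOX against saline, but each was called lower under median-ratio scaling and quantile normalization, Mmp11 also without WT DOX library 3 (limma adjusted p = 0.00726) and Mmp28 without saline library 3 (limma adjusted p = 0.0307). Both were higher in Sting-/- DOX than in WT DOX.

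**Figure D4:**
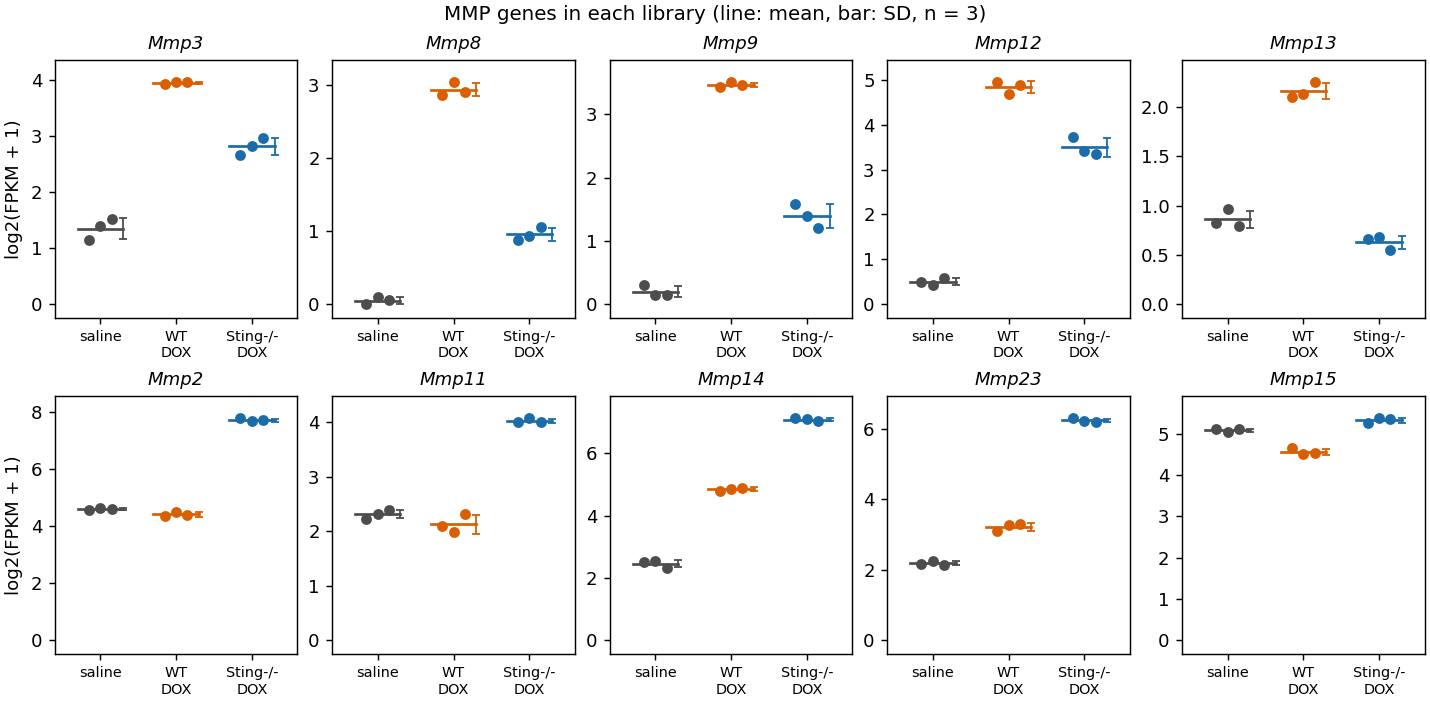
Level of 10 MMP genes as log2(FPKM + 1) (y axis, separate scale per gene) in each library (points) by group, with the mean as a line and the SD as a bar. The top row, Mmp3, Mmp8, Mmp9, Mmp12 and Mmp13, is highest in WT DOX, and the bottom row, Mmp2, Mmp11, Mmp14, Mmp23 and Mmp15, is higher in Sting-/- DOX than in WT DOX.

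Among the 10 tested somatic ADAMs, 7 were higher and 2 lower in WT DOX against saline, and 7 were higher and 2 lower in Sting-/- DOX than in WT DOX. Over all genes, 45.3% were higher and 21.5% lower in the first comparison and 54.1% and 29.7% in the second. Quantile normalization gave 6 and 3, and 6 and 4, and median-ratio scaling 6 and 2, and 6 and 3. Adam8 (gene ID 11501), a leukocyte sheddase, showed the largest rise. It was at 0.31, 0.29 and 0.66 FPKM in saline, 21.13, 25.25 and 24.97 in WT DOX and 15.35, 13.9 and 14.97 FPKM in Sting-/- DOX. Adam8 was high in all 6 drug-treated libraries, and highest in WT DOX. Its log2 fold change was 4.13 in WT DOX (SE 0.10, limma adjusted p = 1.45e-11) and -0.65 in Sting-/- DOX against WT DOX (limma adjusted p = 6.63e-05). Adam9 (gene ID 11502), a widely expressed sheddase, was at 14.49, 14.47 and 13.71 FPKM in saline, 33.68, 33.37 and 32.75 in WT DOX and 22.47, 22.23 and 21.08 FPKM in Sting-/- DOX. Adam9 rose 2.34-fold in WT DOX (limma adjusted p = 5.73e-10) and in Sting-/- DOX was at 0.659 of its WT DOX mean (limma adjusted p = 1.2e-07). Adam8 and Adam9 were the 2 ADAMs that rose in WT DOX and were lower in Sting-/- DOX.

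The main sheddases of the ADAM family, Adam10 and Adam17, were highest in Sting-/- DOX. Adam10, known for shedding Notch and cadherins, was at 13.3 ± 0.188 FPKM in saline, 18.6 ± 0.779 in WT DOX, then 35.6 ± 2.35 in Sting-/- DOX, and was called higher in both comparisons. Adam17, the TNF-converting enzyme, was at 11.1 ± 0.212, 13.8 ± 1.01 and 20.2 ± 0.278 FPKM in the same order (SD, n = 3 each). Its 1.24-fold rise in WT DOX (limma adjusted p = 0.000639) was not called under median-ratio scaling (limma adjusted p = 0.40) or quantile normalization (limma adjusted p = 0.288), while its 1.46-fold excess in Sting-/- DOX over WT DOX (limma adjusted p = 2.24e-06) passed under every alternative tried. Adam15 (gene ID 11490), which is prominent in endothelial cells, was the most abundant ADAM. It was at 24.96, 23.76 and 24.19 FPKM in saline, 36.79, 35.19 and 37.46 in WT DOX and 132.56, 145.34 and 146.09 FPKM in Sting-/- DOX. Adam15 was 1.501-fold higher in WT DOX than with saline (limma adjusted p = 5.91e-07) and 3.87-fold higher in Sting-/- DOX than in WT DOX (limma adjusted p = 3.17e-12). The endothelial marker sum overlapped between saline and WT DOX and was higher in Sting-/- DOX, and its part in the Adam15 level was not tested.

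Adam12, a marker of activated fibroblasts and myoblasts, was at 0.18 ± 0.017 FPKM in saline, 3.34 ± 0.553 in WT DOX, then 7.54 ± 0.512 in Sting-/- DOX, and Adam19, which acts in heart development, at 5.04 ± 0.193, 10.01 ± 0.544 and 17.9 ± 0.54 FPKM (SD, n = 3 each). Both passed the test upward in both comparisons. Adam33 was at 0.72, 1.06 and 0.76 FPKM in saline, 0.52, 0.41 and 0.59 in WT DOX and 3.23, 3.04 and 3.47 FPKM in Sting-/- DOX. It was lower in WT DOX by 0.29 in log2 units (limma adjusted p = 0.0203), a call lost without saline library 2 (limma adjusted p = 0.0915) or WT DOX library 2 (limma adjusted p = 0.0715), and higher in Sting-/- DOX than in WT DOX by 1.496 (limma adjusted p = 2.43e-08). Adam11, a member without protease activity, was at 4.09, 4.57 and 4.46 FPKM in saline, 2.68, 2.9 and 2.9 in WT DOX and 3.13, 3.22 and 3.48 FPKM in Sting-/- DOX. Its fall of 0.49 on the log2 scale in WT DOX passed (limma adjusted p = 5.83e-05). Its call in Sting-/- DOX against WT DOX, 0.16 (limma adjusted p = 0.0485), was lost in most alternatives, including 8 of the 9 that left out a library, and turned to -0.10 under median-ratio scaling and -0.16 with quantile normalization. Adam22, another member without protease activity, was at 1.61 ± 0.198, 1.59 ± 0.229 and 1.25 ± 0.179 FPKM (SD, n = 3 each) and was called in neither comparison, although it was lower in Sting-/- DOX than in WT DOX under median-ratio scaling (-0.39), under quantile normalization (-0.51) and without WT DOX library 1 (-0.28, limma adjusted p = 0.0333). Of the ADAMs of the male reproductive tract, Adam1a alone was tested, at 2.48, 2.09 and 1.84 FPKM in saline, 1.55, 1.37 and 1.1 in WT DOX and 4.54, 4.53 and 4.41 FPKM in Sting-/- DOX. It fell by 0.42 on the log2 scale in WT DOX (limma adjusted p = 0.00204) and was higher by 1.24 in Sting-/- DOX than in WT DOX (limma adjusted p = 1.22e-07), but it shares exon sequence on the same strand with Mapkapk5, so its values are uncertain.

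Of the 6 tested ADAMTS genes that cleave proteoglycans, 5 were higher and 0 lower in WT DOX against saline, and 2 were higher and 1 lower in Sting-/- DOX against WT DOX, where all genes gave 45.3% and 21.5%, and 54.1% and 29.7%. The second split became 2 higher and 4 lower under both median-ratio scaling and quantile normalization, and the first 5 and 1, and 4 and 1. Adamts4 (gene ID 240913), aggrecanase-1, was at 0.1, 0.27 and 0.11 FPKM in saline, 5.71, 6.81 and 6.2 in WT DOX and 5.67, 5.65 and 5.3 FPKM in Sting-/- DOX. The drug-treated groups lay side by side, well above saline. Adamts4 rose by 2.64 on the log2 scale in WT DOX (SE 0.085, limma adjusted p = 1.37e-10), and the difference between Sting-/- DOX and WT DOX was -0.14 with a 95% interval of -0.33 to 0.04 (limma adjusted p = 0.131). That difference was called lower under median-ratio scaling (-0.43, limma adjusted p = 0.000674) and with quantile normalization (-0.43, limma adjusted p = 0.00107). Adamts1 (gene ID 11504), which cuts versican and aggrecan, was at 9.21, 10.28 and 9.09 FPKM in saline, 18.39, 18.51 and 18.37 in WT DOX and 11.19, 12.46 and 11.98 FPKM in Sting-/- DOX. It rose 1.93-fold in WT DOX (limma adjusted p = 7.14e-08) and was at 0.645 of that level in Sting-/- DOX (limma adjusted p = 1.12e-06). Its 0.29 excess over saline in Sting-/- DOX turned to -0.25 under median-ratio scaling and -0.19 with quantile normalization.

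Of the others in that class, Adamts8 was at 0.17 ± 0.076 FPKM in saline, 1.60 ± 0.279 in WT DOX, then 1.28 ± 0.092 in Sting-/- DOX, and Adamts15 at 2.02 ± 0.119, 3.10 ± 0.278 and 3.02 ± 0.307 FPKM. Both rose in WT DOX and were not called between the drug-treated groups, where median-ratio scaling made Adamts8 (-0.37) and Adamts15 (-0.28) lower in Sting-/- DOX, and the rise of Adamts15 was not called with quantile normalization (limma adjusted p = 0.169). The excess of Adamts15 over saline in Sting-/- DOX, 0.41 in log2 units (limma adjusted p = 0.000514), turned to -0.013 under median-ratio scaling and to a call of -0.21 with quantile normalization (limma adjusted p = 0.0422). Adamts9 rose in WT DOX and was higher again in Sting-/- DOX, from 2.94 ± 0.34 to 4.91 ± 0.083 and 9.94 ± 0.465 FPKM. Adamts5, aggrecanase-2, was at 3.64 ± 0.213, 3.60 ± 0.39 and 7.20 ± 0.449 FPKM (SD, n = 3 each), with no call in WT DOX (-0.22 under median-ratio scaling, limma adjusted p = 0.0247) and a 2.002-fold excess in Sting-/- DOX over WT DOX (limma adjusted p = 7.19e-07). The aggrecanases Adamts4 and Adamts5 had different orders of the 3 groups as deposited.

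Of the ADAMTS genes that process procollagen or have roles in microfibrils, Adamts2, Adamts14, Adamts10 and Adamts6 were highest in Sting-/- DOX, and Adamts3 was not. Adamts2 (gene ID 216725), which removes the N-propeptide of fibrillar procollagens, was at 3.85, 4.05 and 4.22 FPKM in saline, 9.43, 9.8 and 10.05 in WT DOX and 49.14, 47.4 and 46.51 FPKM in Sting-/- DOX. Adamts2 rose 2.42-fold in WT DOX (limma adjusted p = 3.07e-09) and was a further 4.89-fold higher in Sting-/- DOX (limma adjusted p = 2.08e-12). Adamts14, of the same class, passed upward in both comparisons, from 0.387 ± 0.071 to 0.897 ± 0.095 and 2.18 ± 0.188 FPKM, while Adamts3 was called in neither, at 1.32 ± 0.132, 1.19 ± 0.229 and 1.31 ± 0.118 FPKM (SD, n = 3 each). Quantile normalization made Adamts3 lower in both (-0.35 and -0.24). Adamts10 (gene ID 224697), which binds fibrillin microfibrils, was at 9.95, 9.99 and 10.46 FPKM in saline, 10.21, 10.41 and 10.71 in WT DOX and 84.37, 86.84 and 87.61 FPKM in Sting-/- DOX. Saline and WT DOX overlapped and the Sting-/- DOX libraries stood alone. Its change in WT DOX was 0.04 with a 95% interval of -0.06 to 0.13 (limma adjusted p = 0.438), which became a call of -0.19 under median-ratio scaling and -0.18 with quantile normalization. Adamts10 was 8.26-fold higher in Sting-/- DOX than in WT DOX (log2 fold change 2.93, SE 0.043, limma adjusted p = 7.4e-14). Adamts6, its closest relative, was at 1.56 ± 0.075, 2.18 ± 0.274 and 4.24 ± 0.131 FPKM (SD, n = 3 each), and its call in WT DOX was lost under median-ratio scaling (limma adjusted p = 0.109) and quantile normalization (limma adjusted p = 0.784).

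The pair that cuts cartilage oligomeric matrix protein (COMP) diverged in WT DOX. Adamts7 (gene ID 108153) was at 8.48, 8.88 and 8.72 FPKM in saline, 6.04, 5.06 and 5.31 in WT DOX and 7.9, 7.56 and 7.6 FPKM in Sting-/- DOX. It fell by 0.59 on the log2 scale in WT DOX (limma adjusted p = 6.56e-06) and was 1.41-fold higher in Sting-/- DOX than in WT DOX (limma adjusted p = 5.28e-05), a call lost under median-ratio scaling (limma adjusted p = 0.0887). Against saline, Adamts7 in Sting-/- DOX was lower by 0.16 (limma adjusted p = 0.035), and that call was lost without library 2 or 3 of saline or of Sting-/- DOX (limma adjusted p = 0.0742 to 0.0903) and with TPM scaling (limma adjusted p = 0.079). Adamts12 went the other way in WT DOX, from 0.437 ± 0.059 to 1.30 ± 0.13 FPKM, and reached 6.44 ± 0.609 FPKM in Sting-/- DOX (SD, n = 3 each; limma adjusted p = 2.41e-05 and 2.5e-09).

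**Figure D5:**
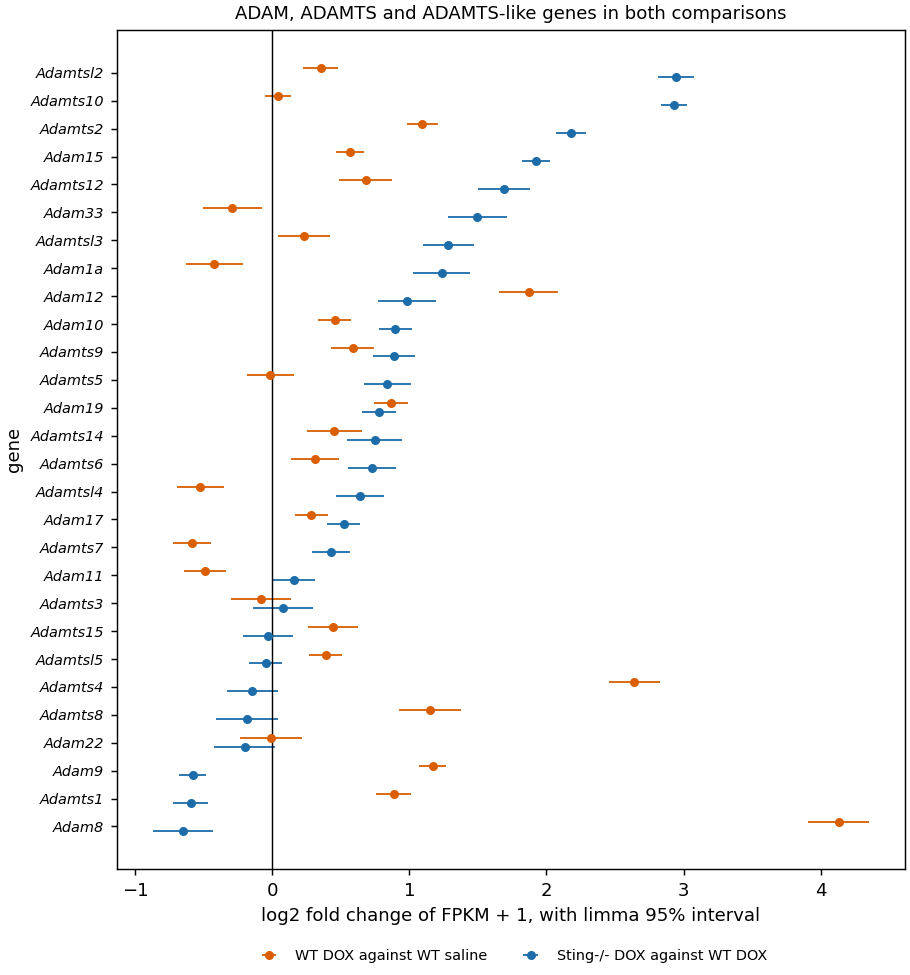
Log2 fold change of FPKM + 1 (x axis) with its 95% limma interval for the tested ADAM, ADAMTS and ADAMTS-like genes (y axis), in WT DOX against saline (orange) and Sting-/- DOX against WT DOX (blue), which share the WT DOX libraries. Adamtsl2 and Adamts10 lead the second comparison at 2.95 and 2.93, and Adam8 leads the first at 4.13 while lying at -0.65 in the second.

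Of the ADAMTS-like genes, Adamtsl2 (gene ID 77794), whose protein binds fibrillin and the latent TGF-beta complex, was at 3.76, 4.1 and 3.99 FPKM in saline, 5.69, 5.29 and 4.99 in WT DOX and 50.08, 47.14 and 45.9 FPKM in Sting-/- DOX. Its 1.35-fold rise in WT DOX (limma adjusted p = 0.00024) was lost with quantile normalization (limma adjusted p = 0.189), and it was 8.96-fold higher in Sting-/- DOX than in WT DOX (limma adjusted p = 6.51e-13). Adamtsl4 (gene ID 229595), which also binds fibrillin, was at 19.94, 18.96 and 21.82 FPKM in saline, 13.46, 15.45 and 12.5 in WT DOX and 23.33, 20.36 and 22.48 FPKM in Sting-/- DOX. The saline and Sting-/- DOX libraries of Adamtsl4 overlapped and those of WT DOX lay below both. Against saline, Adamtsl4 in Sting-/- DOX was called lower under median-ratio scaling (-0.45) and quantile normalization (-0.25). It fell by 0.52 on the log2 scale in WT DOX (limma adjusted p = 9.96e-05) and was 1.60-fold higher in Sting-/- DOX than in WT DOX (limma adjusted p = 9.36e-06). Adamtsl5 (gene ID 66548), the most abundant of the class, was at 34.92, 37.58 and 37.72 FPKM in saline, 52.05, 45.39 and 48.08 in WT DOX and 45.98, 48.78 and 45.65 FPKM in Sting-/- DOX. Both drug-treated groups lay above saline and overlapped each other, and Sting-/- DOX was called lower than WT DOX under median-ratio scaling (-0.38). Adamtsl5 was 1.32-fold higher in WT DOX than with saline (limma adjusted p = 5.59e-05), and its excess over saline in Sting-/- DOX, 0.34 on the log2 scale, turned to -0.24 under median-ratio scaling. Adamtsl3 was at 1.17 ± 0.117, 1.56 ± 0.235 and 5.21 ± 0.165 FPKM (SD, n = 3 each). Its call in WT DOX (0.23, limma adjusted p = 0.0317) was lost in 5 alternatives, among them the fits without saline library 2 and without WT DOX library 1 or 2 (limma adjusted p = 0.0614 to 0.132), and had the other sign with quantile normalization (-0.04).

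Sorted by both comparisons, which share the WT DOX libraries, 15 members were higher in both and 2 were called in neither. Another 9 were higher in WT DOX than with saline and lower in Sting-/- DOX than in WT DOX, and 10 were lower and then higher. A further 4 were higher in the first alone and 6 in the second alone. Over all genes, 45.3% were higher and 21.5% lower in the first comparison, and 54.1% and 29.7% in the second. The share of all genes in each of these patterns was not computed, so the counts are not read as particular to the family. The 9 that were higher and then lower were Mmp3, Mmp8, Mmp9, Mmp12, Mmp13, Adam8, Adam9, Adamts1 and Timp1. The 10 that were lower and then higher were Mmp2, Mmp15, Adam1a, Adam11, Adam33, Adamts7, Adamtsl4, Timp2, Timp3 and Timp4. Set directly against WT saline, Sting-/- DOX was lower in Mmp13, Adam11 and Adamts7 and not called in Adam22, Adamts3 and Adamtsl4, while the other 40 tested members were higher. Of those 40, Adam9 (limma adjusted p = 0.596) and Mmp24 (limma adjusted p = 0.143) lost the call under median-ratio scaling. Mmp24 also lost it with quantile normalization (limma adjusted p = 0.415). Under median-ratio scaling, Adamts1, Adamts15, Mmp15 and Adamtsl5 changed sign.

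The 18 members below the filter were at most 1.47 FPKM in any library. Of these, 7 reached 0.5 FPKM in every library of a group, and their highest values in any library were 1.38 FPKM for Mmp16, 0.7 for Mmp25, 0.88 for Mmp27, 1.4 for Adam23, 1.47 for Adamts17, 0.83 for Adamts19 and 1.09 for Adamtsl1. These highest values lay in Sting-/- DOX libraries, except that of Mmp25, which lay in WT DOX. The other 11 were at most 0.52 FPKM in any library. With no filter on low values, 31, 37 and 50 of the 64 members were called higher and 10, 9 and 3 lower in the 3 comparisons. The shares of all genes without the filter are not given here, so these counts are not read against them. Some tested members share exon sequence with another expressed gene on the opposite strand: Adam17 with Iah1, Adam1a with Tmem116, Adamts7 with Tbc1d2b, Mmp19 with Tmem198b, Mmp28 with 1700020L24Rik and Timp4 with Syn2. Whether the counting used strand is not given in the sources used here, so the values of these members may hold reads of their neighbours.

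Genes whose proteins activate or anchor these proteases were counted in the same way. Of 17 tested activators and cofactors, 14 were higher and 3 lower in WT DOX against saline (median log2 fold change 0.59), and 14 were higher and 2 lower in Sting-/- DOX than in WT DOX (1.05). The shares of all genes were 45.3% higher and 21.5% lower in the first comparison and 54.1% and 29.7% in the second. Median-ratio scaling and quantile normalization each left 10 higher and 3 lower in the first comparison and 12 and 3 in the second. The urokinase receptor Plaur, which focuses plasmin formation at the cell surface, was at 1.63, 1.66 and 2.04 FPKM in saline, 17.41, 15.46 and 16.5 in WT DOX and 9.33, 9.54 and 10.22 FPKM in Sting-/- DOX. Plaur rose 9.26-fold in WT DOX (limma adjusted p = 3.68e-11) and was lower in Sting-/- DOX than in WT DOX (limma adjusted p = 1.74e-06), the same order of groups as in Mmp3. Its ligand Plau rose 4.84-fold in WT DOX and differed by 0.03 on the log2 scale between the drug-treated groups (limma adjusted p = 0.805), or by -0.29 under median-ratio scaling (limma adjusted p = 0.0107). Bmp1, the procollagen C-proteinase, was at 13.1, 12.3 and 13.7 FPKM in saline, 25.7, 28.0 and 27.2 in WT DOX and 122.3, 114.3 and 118.6 FPKM in Sting-/- DOX, rising in the steps seen for Adamts2. Ctsk, the collagenolytic cathepsin K, was 5.26-fold higher in Sting-/- DOX than in WT DOX, and Tspan15, a tetraspanin partner of ADAM10, 4.70-fold higher (limma adjusted p = 1.84e-11 and 5.27e-10). The proprotein convertase Pcsk6 fell by 0.85 on the log2 scale in WT DOX (limma adjusted p = 5.08e-08).

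A list of other inhibitors and of clearance genes, among them Lrp1, had 7 tested genes. Of these, 3 were higher and 2 lower in WT DOX (median -0.04), beside the same shares of all genes. In Sting-/- DOX against WT DOX, 6 were higher and 1 lower (median 0.94), again beside those shares. With either median-ratio scaling or quantile normalization the first split was 3 and 4. Serpine2, a serine protease inhibitor, was not called in WT DOX (-0.04, limma adjusted p = 0.5, and -0.28 under median-ratio scaling with limma adjusted p = 0.000612) and was 6.17-fold higher in Sting-/- DOX than in WT DOX (limma adjusted p = 1.22e-12). Papln, a matrix protein related to the ADAMTS family, fell by 1.13 on the log2 scale in WT DOX and was 6.62-fold higher in Sting-/- DOX (limma adjusted p = 4.31e-07 and 6.22e-10), the order of groups of Timp4. Tfpi2 rose 4.98-fold in WT DOX and Spock2 fell by 0.37 in log2 units (limma adjusted p = 4.93e-09 and 0.00907).

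Transcripts of matrix proteins that these enzymes cut were mostly higher in each step. Of 18 tested, 15 were higher, 0 lower and 3, Acan, Comp and Dcn, not called in WT DOX (median 1.60), beside 45.3% higher and 21.5% lower over all genes. In Sting-/- DOX against WT DOX, 17 were higher and 1 lower (median 2.09), beside 54.1% and 29.7%. Some of them are also in the fibroblast marker list, and Comp and Acan are in the chondrocyte and tendon-like list, of which all 7 tested genes were higher in Sting-/- DOX than in WT DOX. Median-ratio scaling and quantile normalization made 1 and 2 of the 18 lower in WT DOX. Tnc, which encodes tenascin-C, was at 0.3, 0.42 and 0.24 FPKM in saline and at 35.25, 35.69 and 32.53 FPKM in WT DOX, and Fn1, fibronectin, rose 9.15-fold (limma adjusted p = 4.31e-13 and 1.24e-11). In Sting-/- DOX against WT DOX, Eln, which encodes elastin, the substrate of MMP12, was 39.1-fold higher (limma adjusted p = 3.49e-14), and Comp, the substrate of ADAMTS7 and ADAMTS12, was at 102.2, 97.1 and 97.1 FPKM against 0.75, 0.45 and 0.57 FPKM. Spp1, osteopontin, was the 1 lower gene, at 0.414 of its WT DOX mean (limma adjusted p = 1.1e-08).

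Of 15 tested cell-surface proteins shed by ADAMs, 12 were higher and 2 lower in WT DOX (median 1.02), and 10 were higher and 4 lower in Sting-/- DOX than in WT DOX (median 0.60). All genes split into 45.3% higher and 21.5% lower, and 54.1% and 29.7%, so the second split of the list lies near that of all genes. Under median-ratio scaling the splits were 11 and 3, and 8 and 5, and with quantile normalization 11 and 3, and 9 and 5. Hbegf, a shed growth factor, rose 3.46-fold in WT DOX and in Sting-/- DOX was at 0.357 of that mean (limma adjusted p = 1.92e-09 and 3.09e-09). Cdh2, the cadherin of cardiomyocytes, was at 0.282 of its WT DOX mean in Sting-/- DOX, while Cdh5, the endothelial cadherin and also a member of the endothelial marker list, was 4.10-fold higher (limma adjusted p = 1.61e-12 and 1.23e-12).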

How the data were processed

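Extraction used a QIAGEN kit and library preparation an MGI kit, per the labels' protocols. The authors deposited 1 table per library with FPKM to 2 decimals. The submitters' processing notes list HISAT2 2.0.4, RSEM 1.2.12, Bowtie2 2.2.5 and build GRCm39, without roles. FPKM depends on each library's total, so abundant genes can shift the others. Symbols came from a RefSeq table of GRCm38.p6, which held 16825 of the gene IDs and not the other 48. Promoter coordinates are of that build, not of the files'.

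The test was limma 3.58.1 in R 4.3.3 on log2(FPKM + 1) (mean of at least 1 FPKM, trended prior, all 9 libraries, 6 residual degrees of freedom, two-sided, Benjamini-Hochberg, 0.05). It was also run on simulated data in which few genes changed. Much of the transcriptome was called in the real data, so that run does not cover a shift of this kind. With 3 against 3, an exact permutation p is at least 0.1. Alternatives were 9 settings and leaving out each library. Depth is approximate: 56% to 66.7% of low values were within 0.1 reads of a whole number, so no counts were recovered.

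The members and lists were chosen with earlier results of these data known. Values per library are given for the TIMPs, for the highest member of each class, for the 8 members that rose most and the 6 that fell most per comparison with ranges that do not overlap, and for members with opposite calls. Each pathway list names up to 3 genes and 1 that went the other way. Some genes this rule would name are not reported here. Members given as mean ± SD were added so that all tested members are described. Smooth muscle and pericyte markers totalled 357 to 403 FPKM in saline, 280 to 292 under WT DOX, then 973 to 1039 for Sting-/- DOX. Acta2 and Tagln were the highest genes of that last sum, with means of 400.8 and 342.3 FPKM. Against saline, 5 of these 8 markers were higher in Sting-/- DOX and 3 lower. The lower ones were Kcnj8, Rgs5 and Abcc9, with saline means of 18.2, 159.6 and 62.7 FPKM. Their Sting-/- DOX means were 12.1, 125.0 and 9.09 FPKM. Mesothelial markers totalled 4.33 to 6.61, 6.45 to 9.02 and 99.3 to 103.3 FPKM by group, listed as above. Chondrocyte and tendon-like markers totalled 3.35 to 5.17, 6.84 to 9.15 and 243.7 to 258.5 FPKM.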

Additional observations from a re-analysis of the deposited data

How the results depend on the processing

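Against the 28, 31 and 40 members higher and the 10, 9 and 3 lower in the 3 comparisons (WT DOX against saline, Sting-/- DOX against WT DOX, Sting-/- DOX against saline), a filter at a mean of 5 FPKM, which leaves 25 members, gave 16, 18 and 23 higher and, in the third, 1 lower. Quantile normalization gave 17, 14 and 8 lower, and median-ratio scaling 14 and 9 lower in the second and the third. Leaving out 1 library gave 1 to 3 lower in the third, and 1 without saline library 2 or Sting-/- DOX library 3. The shares of all genes under these alternatives are not given here, so none of these counts is read against all genes. Called members changed sign under 2 scalings: Adamtsl3 in the first comparison (-0.04 with quantile normalization), Adam11 in the second comparison (-0.10 with median-ratio scaling, -0.16 with quantile normalization) and, in the third, Adamts1 (-0.25 and -0.19), Adamts15 (-0.013 and -0.21), Mmp15 (-0.34 and -0.028) and Adamtsl5 (-0.24 with median-ratio scaling). The cause was not tested.

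Whether replicate numbers pair the libraries is not given in the labels. Deviations from group means of same-numbered libraries correlated at -0.032 to 0.104, and of others at -0.066 to 0.035. The highest value was between library 2 of saline and library 2 of WT DOX. Such low values do not settle whether the libraries were paired. With the replicate number as a block, 28, 30 and 40 members were higher and 10, 9 and 3 lower, and Adam11 in the second comparison was the 1 call lost. FPKM below about 1 rests on few reads at these depths, so differences among low members are less precise.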
